A study of Rattus norvegicus with 6 samples.

Results

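Sox2, Sox9 and Sox10 are transcription factors that bind DNA through a shared HMG box and set the course of neural and glial development. The rows of the count table with the identifiers ENSRNOG00000012199 (Sox2), ENSRNOG00000002607 (Sox9) and ENSRNOG00000011305 (Sox10) were taken, 3 of the 26405 genes listed, under the gene names that were supplied with these identifiers. The 6 libraries held RNA of rat cells grown in vitro, with 2 libraries for each of 3 cell types: astrocytes, neurons and oligodendrocyte precursor cells (OPCs). Each cell type was bought as its own product from Life Technologies. Astrocytes and OPCs were kept for 8 days, passaged 1 time and kept for 6 days more, while neurons were kept for 7 days with 0 passages. Cell type therefore cannot be told apart from product, nor neurons from passage and time in culture. The labels name no treatment, strain or age of the donor animals, and the study as titled sets cultured neural cells beside those of the living animal and of other species, which are not analysed here.

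As background, Sox2 is expressed in neural stem and progenitor cells and is switched off as most neurons mature, while many astrocytes and OPCs keep it. Sox9, in mouse, is needed for the switch of neural progenitors from making neurons to making glia, and in the adult mouse brain it marks astrocytes. Sox10, a close relative of Sox9, is a defining factor of the oligodendrocyte lineage, where in mouse it drives myelin genes. Outside the brain Sox10 also marks neural crest derivatives such as Schwann cells and melanocytes.

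Total counts ran from 22265917 in OPC replicate 1 to 102861667 in astrocyte replicate 1. A floor of 3 counts corresponded to between 0.0292 and 0.135 CPM (the count scaled to library size, here by these totals), and the lowest count of any of the 3 genes in a library was 157, so all were detected in every library. All 3 passed the low-count filter, which left 18206 genes. The levels below are CPM scaled by TMM, a factor that corrects library size for composition. The 95% exact Poisson interval of the lowest count, Sox10 in neuron replicate 2, ran from 2.31 to 3.18 CPM and covers counting error only. The other identifiers in the table could not be matched to gene symbols, so the purity of each culture was not checked with marker genes other than these.

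Sox2 was high in both glial cultures and low in neurons. It stood at 246.8 and 244.5 CPM in astrocyte replicates 1 and 2, at 197.6 and 249.6 CPM in OPC replicates 1 and 2, and at 53.5 and 14.2 CPM in neuron replicates 1 and 2. The astrocyte values lay inside the range of the OPC values, and both neuron libraries were below all 4 others. The means were 245.6 ± 1.64 CPM in astrocytes, 223.6 ± 36.8 CPM in OPCs and 33.8 ± 27.8 CPM in neurons (SD, n = 2 each). In these bulk libraries fewer cells of a type and less RNA per cell cannot be told apart.

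**Figure D1:**
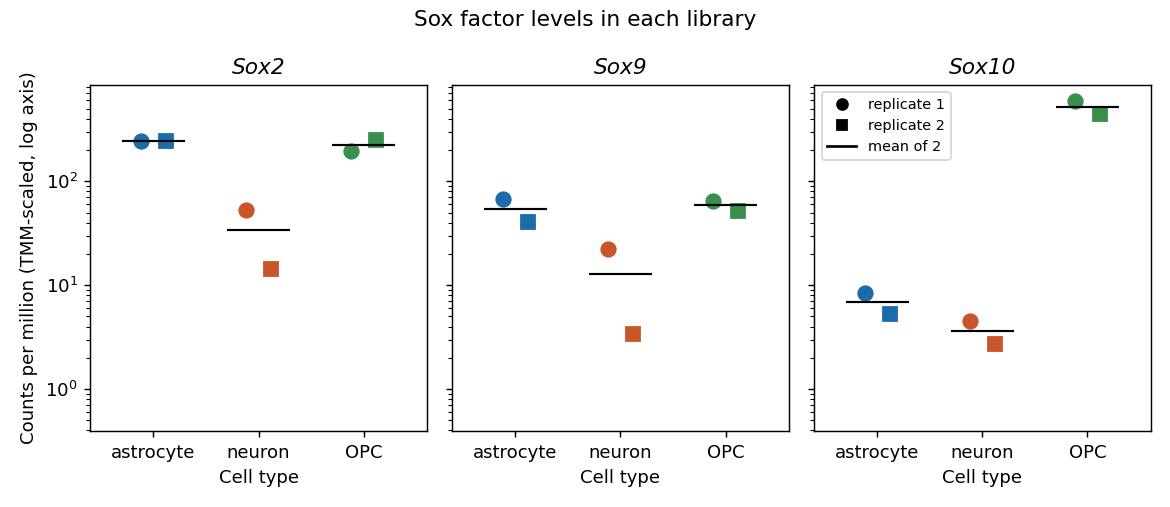
TMM-scaled CPM (log axis) of Sox2, Sox9 and Sox10 in each of the 6 libraries by cell type; circles are replicate 1, squares replicate 2 and lines the mean of 2. Sox2 and Sox9 are lower in both neuron libraries than in the 4 glial libraries, and Sox10 is at 445.4 and 596.9 CPM in OPC libraries and at 8.50 CPM or less in the others.

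Neurons had less Sox2 than astrocytes. The fitted difference was 7.26-fold, on the log2 scale -2.86 ± 0.62 (SE), with an edgeR adjusted p of 0.0137. Neurons also had less Sox2 than OPCs. Here the fitted difference was 6.60-fold, on the log2 scale -2.72 ± 0.62 (SE), with an edgeR adjusted p of 0.0346. The call against astrocytes held without any 1 library, with an edgeR adjusted p of at most 0.045. The call against OPCs was lost without OPC replicate 1 (edgeR adjusted p = 0.11), without OPC replicate 2 (0.149) and, narrowly, without astrocyte replicate 2 (0.0502), while the log2 fold changes were -2.88, -2.57 and -2.74. It was also lost with the replicate number as a block (-2.90, edgeR adjusted p = 0.052). Over these omissions the fold change itself moved most with the neuron libraries: omission of neuron replicate 1 gave -4.11 against astrocytes and -3.98 against OPCs, and omission of neuron replicate 2 gave -2.20 and -2.06.

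Between the glial cultures no difference in Sox2 was detectable. The log2 fold change of OPCs over astrocytes was -0.14 (edgeR adjusted p = 0.902), with a 95% interval from -1.51 to 1.24. That interval includes differences of more than 2-fold in either direction. Its sign turned when libraries were scaled by total counts alone (0.28) and without OPC replicate 1 (0.023). With total counts alone the astrocyte libraries stood at 195.8 and 204.2 CPM and the OPC libraries at 230.6 and 255.8 CPM, so that the groups no longer overlapped.

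Sox9 was likewise lowest in neurons, and its astrocyte and neuron replicates lay further apart than those of Sox2. Its level was 66.9 and 40.3 CPM in astrocyte replicates 1 and 2, 64.8 and 52.3 CPM in OPC replicates 1 and 2, and 22.3 and 3.39 CPM in neuron replicates 1 and 2. Both OPC values lay within the astrocyte range, and both neuron values lay below all 4 glial values. The higher neuron library came within 1.81-fold of the lower astrocyte library. The means were 53.6 ± 18.9 CPM in astrocytes, 58.5 ± 8.88 CPM in OPCs and 12.8 ± 13.4 CPM in neurons (SD, n = 2 each).

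None of the Sox9 differences passed the test across all genes. For neurons over astrocytes the log2 fold change was -2.06 ± 0.79, with its SE, and the edgeR adjusted p was 0.0901. For neurons over OPCs it was -2.19 ± 0.79, and the edgeR adjusted p was 0.122. The 95% intervals of these values, -3.92 to -0.20 and -4.05 to -0.32, are those of single tests and lie below 0. Without neuron replicate 1 both comparisons passed, at log2 fold changes of -3.98 (edgeR adjusted p = 0.00181) and -4.11 (edgeR adjusted p = 0.00494). Without neuron replicate 2 they were -1.27 (edgeR adjusted p = 0.0711) and -1.39 (edgeR adjusted p = 0.0844). DESeq2 passed both, with adjusted p of 0.0376 and 0.035. Limma-voom passed the comparison with astrocytes (adjusted p = 0.0444), and so did edgeR with the replicate number as a block (-2.40, adjusted p = 0.0498). Whether the Sox9 difference was called thus changed with the neuron libraries included and with the test and its design.

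For OPCs over astrocytes the log2 fold change of Sox9 was 0.13 ± 0.76 (SE; edgeR adjusted p = 0.931), with a 95% interval from -1.66 to 1.91. The interval spans more than 2-fold either way, and the sign turned without astrocyte replicate 2 (-0.16) or OPC replicate 1 (-0.036). Scaled by total counts alone, the OPC libraries (75.7 and 53.6 CPM) lay just above the astrocyte libraries (53.1 and 33.6 CPM). In these cultures Sox9, known as an astrocyte marker of the adult mouse brain, was at 52.3 to 64.8 CPM in OPCs and 40.3 to 66.9 CPM in astrocytes.

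Sox10 was high in the OPC libraries and low in the others. It stood at 596.9 and 445.4 CPM in OPC replicates 1 and 2, at 8.50 and 5.34 CPM in astrocyte replicates 1 and 2, and at 4.49 and 2.72 CPM in neuron replicates 1 and 2. The lowest OPC library exceeded the highest astrocyte library 52.4-fold and the highest neuron library 99.1-fold. The means were 521.1 ± 107.2 CPM in OPCs, 6.92 ± 2.24 CPM in astrocytes and 3.60 ± 1.26 CPM in neurons (SD, n = 2 each).

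The log2 fold change of Sox10 in OPCs over astrocytes was 6.23 ± 0.52 (SE; edgeR adjusted p = 0.000632), or 75.2-fold. In neurons over OPCs it was -7.17 ± 0.54 (SE; edgeR adjusted p = 0.0032), a 144-fold difference. Both calls held without each library in turn, with log2 fold changes from 5.97 to 6.73 and from -7.58 to -6.86. A larger fall from OPCs to neurons was fitted for 0.0439% of the genes tested, and a larger rise from astrocytes to OPCs for 1.26%.

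For Sox10 in neurons over astrocytes the fitted log2 difference was -0.94 ± 0.42 (SE), which did not pass (edgeR adjusted p = 0.134), with a 95% interval from -1.93 to 0.053. With the replicate number as a block the value was -0.95 and passed (edgeR adjusted p = 0.0226). The lower astrocyte library was 1.19-fold above the higher neuron library, but by total counts alone the groups overlapped, at 6.75 and 4.46 CPM in astrocytes and 5.44 and 2.83 CPM in neurons. The residual Sox10 in both cultures, 694 and 224 counts in astrocyte replicates 1 and 2 and 411 and 157 counts in neuron replicates 1 and 2, was well over the floor of 3 counts. That floor is a fixed setting and not a measured background, and the source of these reads was not tested.

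**Figure D2:**
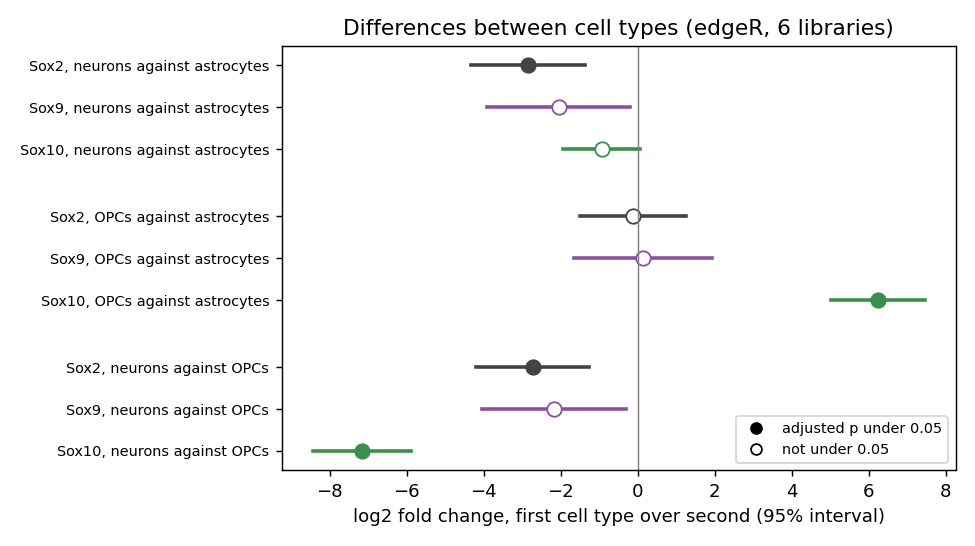
Fitted log2 fold change (x axis, first cell type over second) of each gene in each pair of cell types with its 95% interval; filled points have an edgeR adjusted p under 0.05. Sox10 stands at 6.23 for OPCs over astrocytes and -7.17 for neurons over OPCs, Sox2 at -2.86 and -2.72 for neurons over astrocytes and over OPCs, and Sox9 close to Sox2 with open points.

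Set beside all genes, neurons and astrocytes differed for 1 of the 3 Sox factors, Sox2, where 30.4% of the 18206 genes tested were called. OPCs and astrocytes differed for 1, Sox10, where 25.5% were called. Neurons and OPCs differed for 2, Sox2 and Sox10, where 12.4% were called. The median log2 fold changes of the 3 genes were -2.06, 0.13 and -2.72, and those of all genes tested were -0.059, -0.036 and 0.050. The 3 comparisons share libraries and are not independent of each other.

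Higher in OPCs than in both other cell types, each with an edgeR adjusted p under 0.05, were 407 genes (2.24% of those tested), Sox10 among them. Ordered by the smaller of their 2 log2 fold changes, 12 of the 407 stood above Sox10. Lower in neurons than in both others were 343 genes (1.88%), which included Sox2 and not Sox9. Of the 343, 135 had a larger fall than Sox2 by the same measure, the smaller of the 2 log2 fold changes. Both sets shrank to a small part of their size without OPC replicate 1 and also without OPC replicate 2. No other omission of 1 library reduced them as far. Every fit without 1 library left 1 library of that cell type, so the spread within that cell type was not estimated. The cause of the changes in size was not tested, and they are not credited to a particular library. Both sets were also smaller, to a lesser degree, without astrocyte replicate 1, without astrocyte replicate 2 and without neuron replicate 2. Without neuron replicate 1 both sets were larger, and the genes lower in neurons then held Sox9 as well as Sox2. Sox10 was among the genes higher in OPCs without each library in turn, and Sox2 dropped out of the genes lower in neurons without astrocyte replicate 2 or either OPC library.

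The ratio of a pair of these genes within a library does not depend on how libraries are scaled. Such a ratio compares libraries and not the abundance of the genes, since transcript lengths were not taken into account. The log2 ratio of Sox10 to Sox9 counts was -2.98 and -2.92 in astrocyte replicates 1 and 2, -2.31 and -0.32 in neuron replicates 1 and 2, and 3.20 and 3.09 in OPC replicates 1 and 2. The OPC libraries, at 3.09 or more, therefore stood apart from all others, at -0.32 or less. In neuron replicate 2, where Sox9 was lowest, the 95% counting interval was -0.63 to -0.0098.

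The log2 ratio of Sox10 to Sox2 was -4.86 and -5.52 in astrocyte replicates 1 and 2, -3.57 and -2.39 in neuron replicates 1 and 2, and 1.60 and 0.84 in OPC replicates 1 and 2. The 3 cell types did not overlap in this ratio, and the neuron libraries lay between the astrocyte and OPC libraries. The level of Sox10 itself did not lie between them in neurons. Its mean was 3.60 CPM in neurons and 6.92 CPM in astrocytes, while that of Sox2 was 33.8 and 245.6 CPM. Of the counts that fell on the 3 genes together, Sox10 took 69.5% and 59.6% in OPC replicates 1 and 2, 2.64% and 1.84% in astrocyte replicates 1 and 2, and 5.60% and 13.4% in neuron replicates 1 and 2. The 95% exact binomial interval of the share in neuron replicate 2, from the fewest counts, was 11.5% to 15.5%.

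Sox9 and Sox2 kept a ratio that overlapped between the cell types. Its log2 value was -1.88 and -2.60 in astrocyte replicates 1 and 2, -1.26 and -2.07 in neuron replicates 1 and 2, and -1.61 and -2.26 in OPC replicates 1 and 2. In each cell type the library numbered 1 had the higher ratio, although the labels do not say that a number marks anything shared. With 2 libraries against 2, an exact permutation test cannot go below p = 0.333, so these ratios were not tested.

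**Figure D3:**
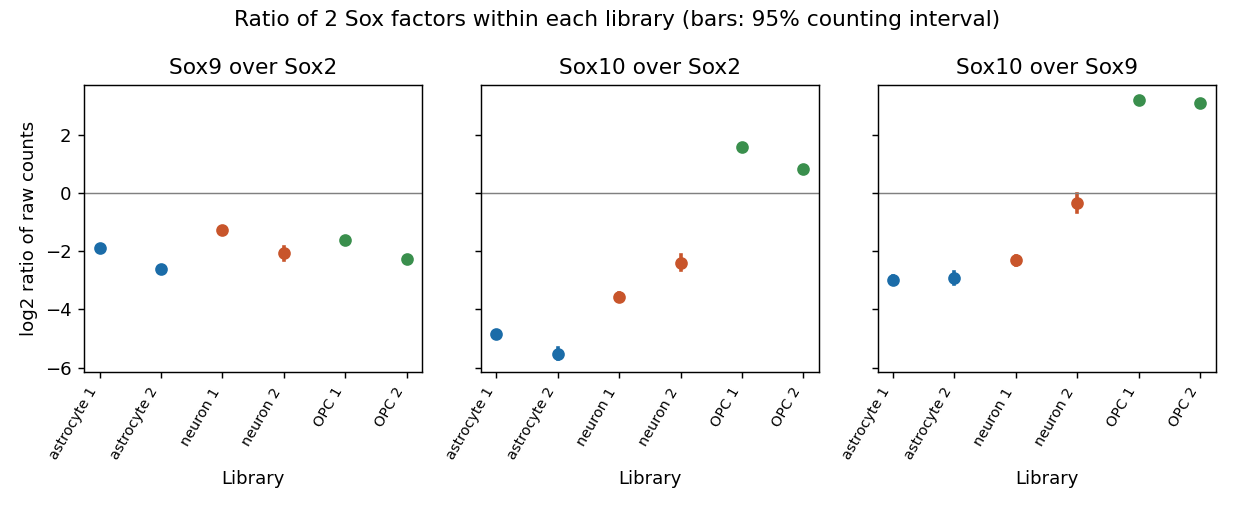
Log2 ratio of raw counts of 2 Sox factors within each of the 6 libraries, with the 95% counting interval as a bar, which is often hidden by the point. Sox9 over Sox2 overlaps between cell types, from -2.60 to -1.26, while Sox10 over Sox9 is at 3.09 and 3.20 in OPC libraries and between -2.98 and -0.32 in the others.

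The neuron replicates were the least alike for Sox2 and Sox9. Sox2 was 3.77-fold and Sox9 6.58-fold higher in neuron replicate 1 than in neuron replicate 2, against 1.65-fold for Sox10. In astrocytes the same ratio of replicate 1 to replicate 2 was 1.01 for Sox2, 1.66 for Sox9 and 1.59 for Sox10, and in OPCs it was 0.791, 1.24 and 1.34. Of all genes tested, 7.53% were raised in neuron replicate 1 by at least as much as Sox2, 3.46% by at least as much as Sox9 and 24.5% by at least as much as Sox10. The SD of this log2 difference over all genes tested came to 1.15 for the neuron pair, 0.79 for the astrocyte pair and 0.77 for the OPC pair.

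Other genes that were low in neurons moved with the same library. Of the 343 genes lower in neurons than in both other cell types, 84.3% were higher in neuron replicate 1 than in replicate 2, with a median log2 difference of 0.70. Over all genes tested, 52.2% were higher in replicate 1 and the median was 0.045. For the 407 genes higher in OPCs than in both others the values were 68.6% and 0.38. These sets were selected on the same libraries, and the part of this library difference in the Sox2 and Sox9 results was not tested.

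**Figure D4:**
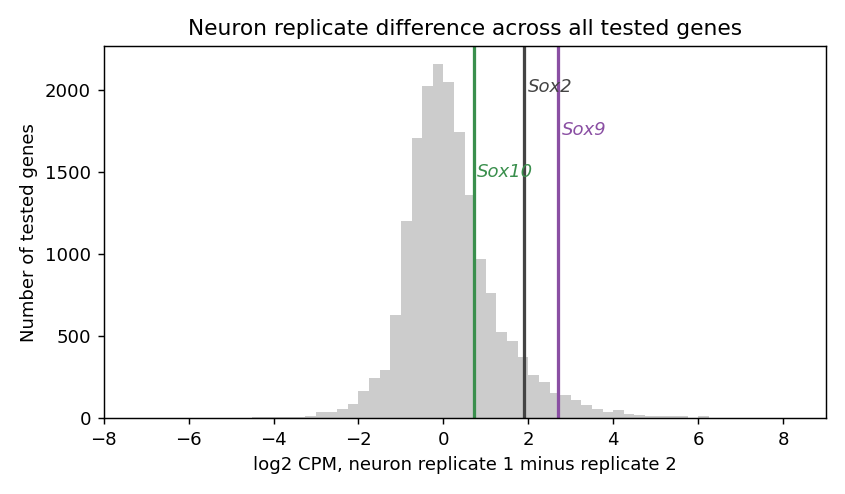
Number of tested genes (y axis) by their log2 CPM in neuron replicate 1 minus replicate 2 (x axis, bins of 0.25), with vertical lines at Sox10 (0.72), Sox2 (1.91) and Sox9 (2.70). Sox2 and Sox9 lie in the right-hand tail, and Sox10 lies within the bulk of the genes.

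Likeness between genes was measured as the root mean square difference of log2 CPM over the 6 libraries, each gene centred on its own mean, among genes with a mean of at least 1 CPM. Sox2 and Sox9 were 0.43 apart. Of the 15804 genes compared with each, Sox9 was the 45th closest to Sox2 and Sox2 the 33rd closest to Sox9. Sox10 lay 2.69 from Sox2 and 2.64 from Sox9.

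The closest genes to Sox2 were ENSRNOG00000017136 at 0.22 and ENSRNOG00000016090 at 0.23. ENSRNOG00000017136 had 14.4 and 11.8 CPM in astrocyte replicates 1 and 2, 3.24 and 1.12 CPM in neuron replicates 1 and 2, and 13.3 and 15.6 CPM in OPC replicates 1 and 2. Since likeness over these libraries chose it, its levels are a description only, as are those of the genes below.

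The closest genes to Sox9 were ENSRNOG00000018413 at 0.22 and ENSRNOG00000009244 at 0.25. ENSRNOG00000018413 had 10.9 and 8.46 CPM in astrocyte replicates 1 and 2, 5.16 and 0.484 CPM in neuron replicates 1 and 2, and 12.1 and 11.3 CPM in OPC replicates 1 and 2. Its neuron replicates differed even more than those of Sox9.

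The closest genes to Sox10 were ENSRNOG00000016980 at 0.55 and ENSRNOG00000014152 at 0.68. ENSRNOG00000016980 had 17.9 and 28.0 CPM in OPC replicates 1 and 2, 0.245 and 0.453 CPM in astrocyte replicates 1 and 2, and 0.175 and 0.121 CPM in neuron replicates 1 and 2. The second gene had 88.6 and 113.5 CPM in OPC replicates 1 and 2 and at most 2.32 CPM elsewhere. No gene symbol was available for these 6 identifiers.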

How the data were processed

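The authors deposited raw counts per gene (whole numbers, with totals that differ between libraries). Per the labels' protocols, RNA was isolated on columns, 250 ng was submitted and Illumina libraries were sequenced. The aligner, counting tool, genome build, annotation and use of strand are not given in the sources used in this work. In the RefSeq annotation of GRCr8, 1 gene, LOC103691527, overlaps Sox2 and 0 overlap Sox9 or Sox10, so reads at Sox2 may be shared. Of 26405 identifiers, 0 matched a symbol, and the planned marker and pathway lists could not be used. No pair of libraries was identical (0 pairs), and 0 columns were left out.

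Genes were kept by filterByExpr (minimum count 10, minimum total 15). Counts of all 6 libraries were scaled by TMM (factors 0.794 to 1.21) and fitted with edgeR 4.0.16 in R 4.3.3 by robust quasi-likelihood, with 1 coefficient per cell type and 3 residual degrees of freedom. P-values were adjusted over all 18206 genes by the Benjamini-Hochberg method, with a threshold of 0.05. Standard errors are the absolute log2 fold change divided by the square root of F. Intervals of fold changes are unadjusted and use the moderated degrees of freedom. The named genes were the 3 Sox factors and, for each, its 2 closest genes (prior count 2). With a prior count of 0.5 the closest gene of each stayed the same. The second closest gene of Sox2 and that of Sox10 were then other genes. Alternatives were other scalings, filters and tests (DESeq2 1.42.0, limma-voom from limma 3.58.1), fewer libraries and a replicate block. The edgeR steps were run on simulated counts that shared 1 mean profile between cell types, apart from a small set of changed genes. Such counts do not copy the many differences between the real cell types. The genes, lists and tests were chosen with earlier results of these data known. Nothing in the labels says that replicates were separate cultures, and p-values then reflect just the variation among these libraries, which may be technical.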

Additional observations from a re-analysis of the deposited data

How the results depend on the processing

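Over 15 alternatives for each of 9 results, 120 of 135 values kept their direction and side of the threshold, 4 lost a call, 7 gained one and 4 changed sign. Sox2 between neurons and astrocytes and both Sox10 calls held in all. The replicate block (3 correlations of deviations between cell types from 0.147 to 0.292, with no label on what a number marks) gave Sox9 -2.40 and Sox10 -0.95 for neurons against astrocytes, now called (edgeR adjusted p = 0.0498 and 0.0226), and Sox2 -2.90 for neurons against OPCs, no longer called (0.052). DESeq2 gave Sox9 -1.97 and -2.14 for neurons against astrocytes and OPCs, both called, and 4031 genes called between neurons and OPCs against 2260, and limma-voom gave Sox9 -2.43 for neurons against astrocytes. Sox2 for OPCs against astrocytes was 0.28 by total counts alone, a scaling that moved the median of all genes to 0.39 and the share of calls higher in OPCs from 41.6% to 58.6%. For neurons against astrocytes it moved them to 0.40 and from 47.7% to 66.2%. Leaving out 1 library, with the remaining library of that cell type taken to vary as the other groups do, gave log2 fold changes from -3.98 to -1.27 for Sox9 in neurons against astrocytes, -4.11 to -1.39 for Sox9 and -3.98 to -2.06 for Sox2 in neurons against OPCs, and -0.16 to 0.66 for Sox9 and -0.24 to 0.023 for Sox2 in OPCs against astrocytes. The cause of these changes was not tested. The number of genes called ranged between 3306 and 5996 in the comparison of neurons with astrocytes (5532 with all libraries), between 2182 and 5831 in that of OPCs with astrocytes (4649), and between 116 and 2759 in that of neurons with OPCs (2260). Sizes of the sets of genes called against both other cell types under these settings were worked out after seeing the data. DESeq2 gave 733 genes higher in OPCs (407 by edgeR) and 694 lower in neurons (343), the replicate block gave 713 lower in neurons, and total counts alone gave 207. Of the 3 Sox factors, the genes lower in neurons held Sox2 and Sox9 by DESeq2 and Sox2 by total counts alone. With the replicate block they held Sox10 and not Sox2.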
